A study of Drosophila melanogaster with 4 samples.

Results

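The genes described here are 9 members of the Jun N-terminal kinase (JNK) pathway of Drosophila melanogaster, with its AP-1 transcription factors and target genes: msn, slpr, hep, bsk, Jra, kay, puc, Mmp1 and Gadd45. They were chosen by the gene symbol that the array's probe table gives to each probe set. Of the 9 genes, 8 were named by at least 1 probe set, 10 of the 14010 probe sets in all, and those 8 were among 10845 genes measured; kay and hep had 2 probe sets each. No probe set of the table named Mmp1, a matrix metalloproteinase, and it is not analysed here.

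Transcript levels were measured in total RNA of Drosophila embryo cell cultures, on 1 array for each of 4 samples. All 4 samples were negative fractions, the cells left after fluorescence-activated sorting had collected labelled neurons. The 2 samples called Cha-negative (a and b) were taken from cultures of 3 to 5 days in which cholinergic neurons expressed GFP, and the 2 Gad1-negative samples (a and b) from cultures whose neurons were labelled by the red protein dsRed1 (RFP) under a directly fused 2.1 kb promoter of glutamic acid decarboxylase 1, with no culture age given. The labels name no strain, and nothing in them says that a and b were separate cultures, so each p-value measures only the spread between these samples, which may be technical.

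The JNK pathway is a kinase cascade that cells switch on under stress, at wounds and during the movement of epithelial sheets. In flies the kinase Msn acts above the MAP kinase kinase kinase Slpr, which activates the MAP kinase kinase Hep, and Hep phosphorylates the JNK Bsk. Bsk in turn phosphorylates the AP-1 proteins Jra (Jun) and Kay (Fos), whose target puc encodes a phosphatase that switches Bsk off again, so that puc transcript is widely used as a readout of the pathway. Much of this cascade runs through phosphorylation, which an array does not measure.

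Values are scaled intensities, 1 for each probe set. Differences are in log2 units, Gad1-negative minus Cha-negative, and carry the standard error (SE) from a limma fit over the 6994 genes above an intensity filter. That fit draws the spread of each gene toward that of genes of like intensity. An SE or p-value therefore does not rest on the gene's own 4 values alone. The filter required a mean of at least log2 7.05, an intensity of 132, and values under 44.9, the floor, were set to it. A gene with several probe sets was represented by the one with the highest mean. The median probe set intensity was 248 (a) and 219 (b) for Cha-negative, and for Gad1-negative 213 (a) and 181 (b). Markers of several cell types were read in all 4 samples. Every glial marker of the list (7 of 7 measured) lay above the floor in each sample, whereas among the 6 of 8 neuronal markers measured nSyb lay under it in both Cha-negative samples and brp in Gad1-negative a. The summed intensity of the neuronal markers was 1698 in a and 4078.6 in b of Cha-negative, and for Gad1-negative 2221.5 in a and 3886.1 in b. In bulk samples such as these, fewer cells of a type and less RNA per cell cannot be told apart.

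No member passed the test between the fractions, and the members did not move as one group. Of the 8 members measured, 6 stood lower and 2 higher in Gad1-negative; over all genes measured 52.8% stood lower, 41.6% higher, and 5.55% had no difference because they lay at the floor throughout. Limma called 0 of the 7 members that lay above the filter at an adjusted p under 0.05, and 0 also had an unadjusted p under 0.05. Over all 6994 genes it called 0%, with 4.93% at an unadjusted p under 0.05 and a smallest adjusted p of 0.783. The median difference of the 8 members was -0.42, against -0.05 over all genes measured. With each array centred on its median these were -0.18 and 0.04, and with quantile normalization -0.52 and 0. The largest differences were those of the kinase genes slpr and hep on the lower side and of Gadd45 on the higher side. The size of the differences was close to that of other genes, with a median of 0.55 for the members and 0.49 for all genes measured. With so few samples, no two-sided exact permutation test of a single gene can reach p under 0.05.

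**Figure D1:**
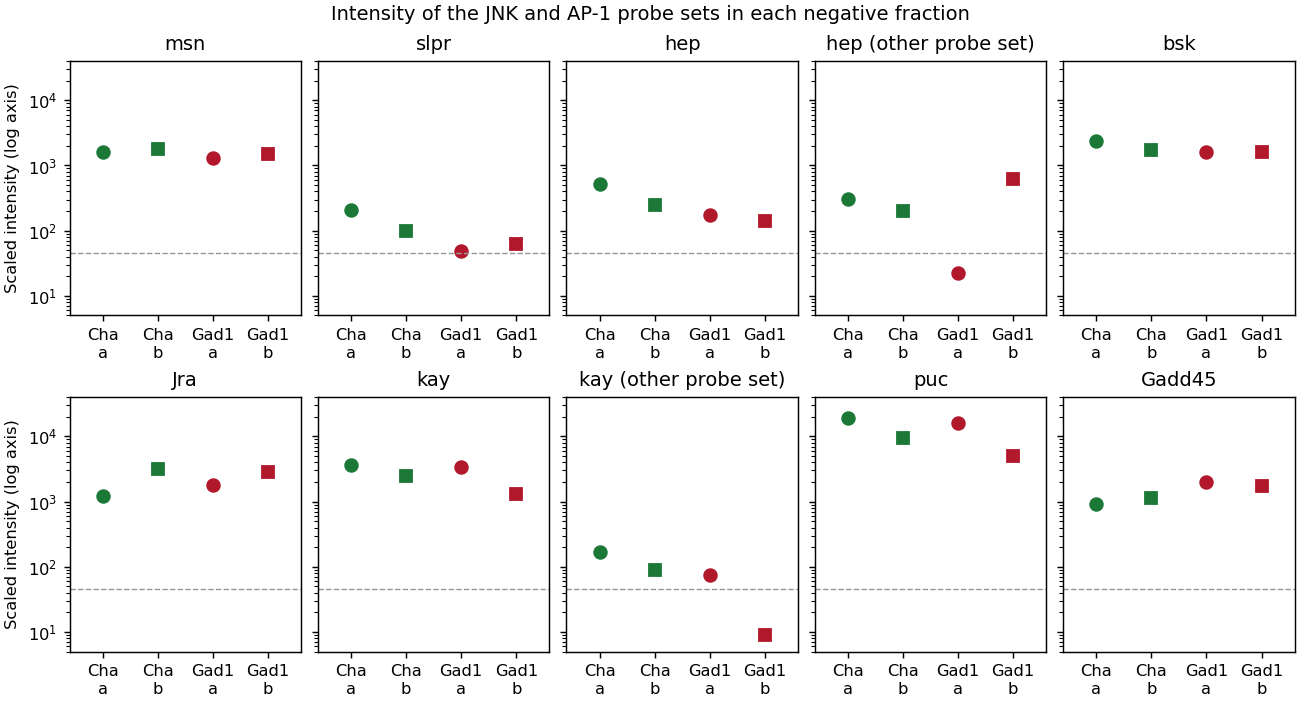
Scaled intensity (log axis) of the 10 probe sets of the JNK and AP-1 genes in the Cha-negative (green) and Gad1-negative (red) samples, with circles for a and squares for b and a dashed line at the floor of 44.9. puc lies between 5068.3 and 19166.1 with each a above its b, Gadd45 is higher in both Gad1-negative samples, and the second hep probe set is at 22.7 and 630.3 in the Gad1-negative samples.

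At the top of the cascade, msn was the steadiest member and slpr the weakest in signal. The kinase gene msn read 1589.9 (a) and 1803.7 (b) in Cha-negative, and 1310.6 (a) and 1502.9 (b) in Gad1-negative; the values of every gene below are given in that order. Both Gad1-negative values lay below both Cha-negative values, by little. The difference was -0.27 ± 0.51 (SE), with a 95% interval of -1.47 to 0.92 (limma adjusted p = 0.956). The kinase gene slpr read 205.8 and 97.8 in Cha-negative, against 48.4 and 61.4 in Gad1-negative, where it stood just above the floor. Its groups did not overlap either. The difference of slpr was -1.38, but its mean lay under the intensity filter and it was not tested. It was -0.82 with the floor at the 30th percentile and -0.89 with an offset of 50 in place of the floor.

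Both probe sets of hep, the MAP kinase kinase gene, were above the filter, and they disagreed. The one with the higher mean read 525.6 and 247.7 in Cha-negative and 175.9 and 140.6 in Gad1-negative. Its groups did not overlap, and Cha-negative a stood apart from the other three. The difference was -1.20 ± 0.69 with an interval of -2.80 to 0.41 (limma adjusted p = 0.925). The other hep probe set read 307 and 199.8 against 22.7 and 630.3. Here the Gad1-negative samples lay on either side of both Cha-negative samples, and with a at the floor they were at least 14.0-fold apart. The difference of this probe set was -0.56 ± 1.19 (limma adjusted p = 0.958), and it became 1.35 without Gad1-negative a. With the floor at the 10th or the 30th percentile in place of the 20th it was -1.03 or -0.14.

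The JNK gene bsk differed little between samples. It read 2412.7 and 1720.6 in Cha-negative and 1598.3 and 1625.3 in Gad1-negative. Both Gad1-negative values lay below both Cha-negative values and within 1.02-fold of each other. The difference was -0.34 ± 0.53, with an interval of -1.56 to 0.89 (limma adjusted p = 0.945). Without Cha-negative a, the highest sample, it was -0.09.

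The AP-1 genes, whose products pair with each other, did not follow the same order of samples. Jra, the fly Jun, read 1213.5 and 3127.4 in Cha-negative and 1814.3 and 2800.8 in Gad1-negative. In both fractions b was higher than a, and the groups overlapped. The difference was 0.21 ± 0.64, with an interval of -1.28 to 1.70 (limma adjusted p = 0.976), and its sign turned without Cha-negative a (-0.47) or without Gad1-negative b (-0.10). kay, the fly Fos, read 3686.6 and 2443.5 in Cha-negative and 3368.4 and 1322.2 in Gad1-negative. In both fractions a was higher than b, the reverse of Jra, and the groups overlapped. The difference of kay was -0.51 ± 0.64, with an interval of -2.0 to 0.98 (limma adjusted p = 0.931); it was 0.17 without Gad1-negative b. A further kay probe set of low signal, under the filter and not tested, read 170.1 and 89.1 against 74 and 9.1. In it too a exceeded b in both fractions, but its groups did not overlap. Its difference was -1.09, with Gad1-negative b under the floor, and -1.57 or -0.61 with the floor at the 10th or the 30th percentile.

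Among the targets, puc varied between replicates more than between fractions. It read 19166.1 and 9589.6 in Cha-negative and 15822.9 and 5068.3 in Gad1-negative. The a sample was 2.0-fold above b in Cha-negative and 3.12-fold above b in Gad1-negative, and the groups overlapped. The difference was -0.60 ± 0.77, with an interval of -2.40 to 1.20 (limma adjusted p = 0.932). Its sign turned without Gad1-negative b, where it was 0.22. Gadd45, a stress-inducible gene whose mammalian relatives bind and regulate kinases above JNK and p38, showed the opposite picture. It read 930.1 and 1140.9 in Cha-negative and 1969.8 and 1762 in Gad1-negative, so that both Gad1-negative values lay above both Cha-negative values and the replicates were within 1.23-fold and 1.12-fold of each other. The difference of Gadd45 was 0.85 ± 0.52, a 1.81-fold gap, with an interval of -0.34 to 2.05 (limma adjusted p = 0.925). It ran from 0.71 to 1.00 with any 1 of the 4 samples left out.

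**Figure D2:**
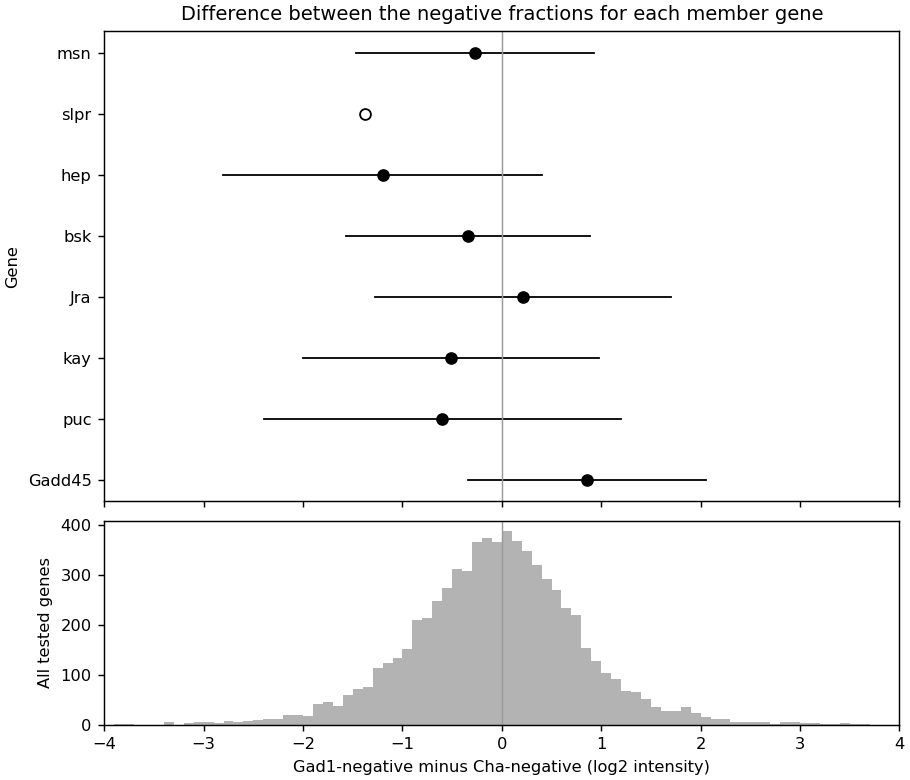
Upper panel, the log2 difference (Gad1-negative minus Cha-negative) of each member gene with its 95% interval from limma; the open circle is slpr, which lay under the filter and was not tested. Lower panel, the number of tested genes in steps of the same difference; each tested member's interval spans 0, and all 8 members lie inside the spread of the 6994 genes.

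The groups did not overlap in 5 of the 8 members, msn, slpr, hep and bsk on the lower side and Gadd45 on the higher. Over all genes measured 37.2% did not overlap, 24.5% on the lower and 12.8% on the higher side. Overlap was read from the intensities before the floor was set, so these shares also count some genes under the floor in all 4 samples. With each array centred on its median, 2 members in place of 4 stayed on the lower side without overlap; the differences of msn and bsk were then -0.03 and -0.09. Some measures of RNA quality and cell content lay along the same groups, and others did not. For the GAPDH control the signal of the 3' probe set over that of the 5' one was 144 or more (a) and 185 (b) for Cha-negative, and for Gad1-negative 23.9 (a) and 38.04 (b). The eIF-4a control also had higher ratios in both Cha-negative samples, 321 and 935 or more against 230 and 77.1, whereas those of the actin control overlapped, at 59.4 and 124 against 82.1 and 106. The lowest of all these ratios was 23.9, so 5' signal was far weaker than 3' signal on all 4 arrays. What this meant for the member probe sets was not tested. The muscle marker list (6 of 10 measured, none under the floor) summed to 6557.5 and 3783.8 in Cha-negative and to 9629.6 and 14135.8 in Gad1-negative. Of its 6 genes Mlc2, Act87E, Prm and Tm2 were higher in Gad1-negative without overlap, whereas Mlc1 and up overlapped, with differences of 0.42 and -0.27. The sums of the neuronal, glial, haemocyte, fat body and epidermal and tracheal marker lists overlapped between the groups. Single markers without overlap were 3 of 6 neuronal, 3 of 7 glial, 0 of 9 haemocyte, 1 of 3 fat body and 3 of 6 epidermal and tracheal. In Gad1-negative nSyb, fne and nrv2 were higher. There brp, repo, wrapper, Fbp2, shg, grh and Osi6 were lower. The part of RNA quality and cell content in the differences of the 5 members was not tested.

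The larger of the replicate gaps exceeded the difference between fractions in bsk, Jra, kay and puc, 4 of the 8 members; over all genes measured it did so in 74.0%. In Cha-negative 3 members were more than 2-fold apart between a and b, namely hep, slpr and Jra, against 30.7% of genes measured. In Gad1-negative 2 members were, kay and puc, against 32.3%. The counts were thus near those of other genes. puc, kay and hep were higher in a than in b in both fractions (28.9% of genes measured), and Jra and msn were higher in b in both (21.5%). For hep this holds for the probe set with the higher mean. The second hep probe set was higher in b in Gad1-negative, at 22.7 (a) and 630.3 (b). Some other values also differed between a and b in both fractions. The median intensity was higher in a in both fractions. The summed haemocyte markers (9 of 10 measured) were 3442.7 (a) and 3101.8 (b) for Cha-negative, and 6908.2 (a) and 1758.5 (b) for Gad1-negative. In Cha-negative their gap was no wider in proportion than that of the median intensity. There Pxn (80.9 and 463.7) and PPO2 (481.8 and 811.9) were higher in b, and the other measured haemocyte markers in a. In Gad1-negative a, PPO2 (2825.6) and PPO1 (1487.5) gave the largest values of the sum. The marker eater lay under the floor in Cha-negative b, and Pxn in Gad1-negative b. The neuronal marker sums given above were higher in b in both fractions. Of the single markers, brp was higher in a in Cha-negative (135.9 and 71.6), and nrv3 in Gad1-negative (1157.4 and 1076.6). The other readings of these markers were higher in b, though nSyb lay under the floor in Cha-negative. In the Cha-negative sum nrv3 (607 and 2355.1) had the widest gap. With each array centred on its median, puc remained 1.77-fold and 2.65-fold higher in a, and with quantile normalization 2.61-fold and 4.76-fold. The part of cell content in the order of puc, kay and Jra was not tested.

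**Figure D3:**
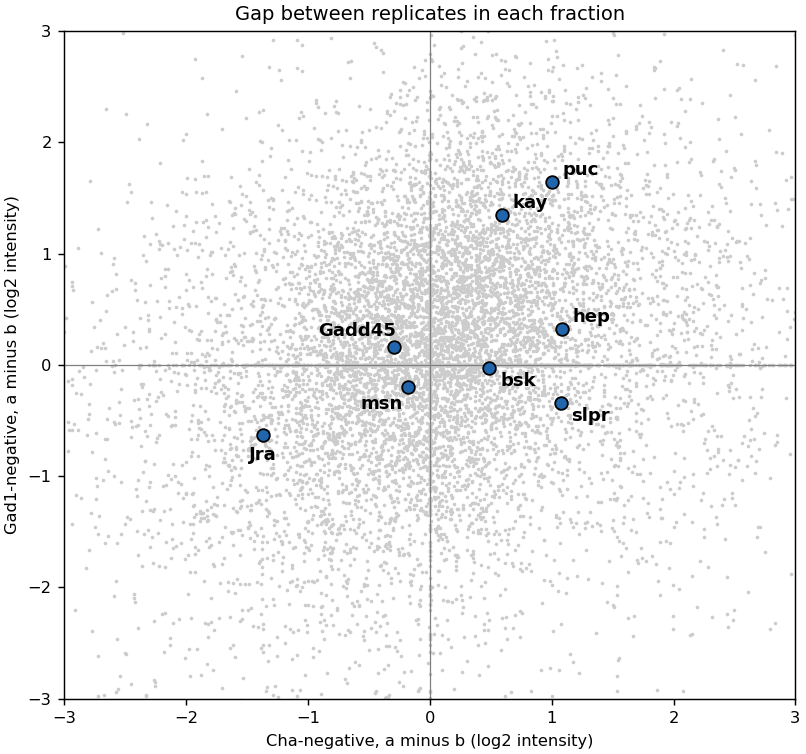
Log2 gap between replicates (a minus b) in Cha-negative on the horizontal and in Gad1-negative on the vertical axis, for the member genes (blue) and all genes measured (grey; points beyond 3 on either axis are not drawn). puc at 1.00 and 1.64 and kay at 0.59 and 1.35 lie in the upper right, and Jra at -1.37 and -0.63 in the lower left.

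The profile of puc over the 4 samples was nearest to that of 3 genes, CCHa1-R, Svil and CG5455. Each gene was centred on its own mean, and likeness was the root mean square distance of the log2 values over the 4 samples. CCHa1-R, a receptor gene for the neuropeptide CCHamide-1, read 464.7 and 244.2 in Cha-negative and 368.8 and 124.2 in Gad1-negative, at a distance of 0.05 from puc. Svil, a gene of the villin and gelsolin family of actin-binding proteins, was at 0.06 and CG5455 at 0.07. Among the members kay was closest to puc, at 0.18, and ranked 69 among the genes tested. The kinase genes followed at 0.56 for hep, 0.63 for bsk and 0.79 for msn, and Gadd45 and Jra were farthest, at 1.01 and 1.23. With 4 samples these distances are a description, and no test was made of them.

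Leaving out 1 sample at a time moved the members to different degrees. By the probe set used for each gene, the differences of msn, slpr, hep, bsk and Gadd45 kept their sign in all 4 cases. That of the second hep probe set did not, and was 1.35 without Gad1-negative a. The difference of hep ran from -1.74 without Cha-negative b to -0.66 without Cha-negative a, and that of slpr from -1.92 to -0.84 for the same samples. For puc the values ran from -1.42 without Gad1-negative a to 0.22 without Gad1-negative b, and for kay from -1.18 to 0.17 likewise. Of the 4 samples, Gad1-negative b was the one whose removal turned the sign of puc and kay.

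**Figure D4:**
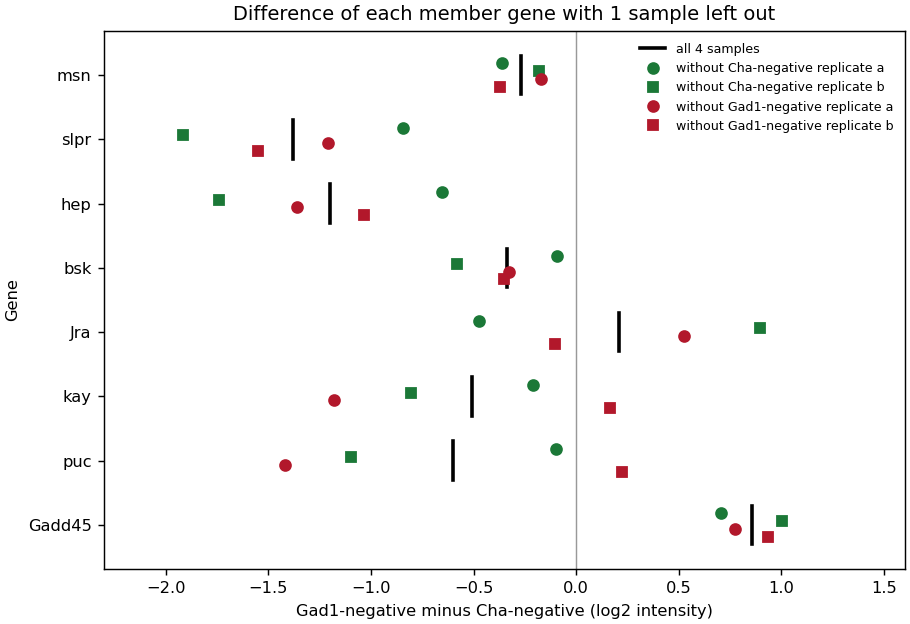
Log2 difference (Gad1-negative minus Cha-negative) of each member with all 4 samples (black bar) and without Cha-negative a (green circle), Cha-negative b (green square), Gad1-negative a (red circle) or Gad1-negative b (red square). Gadd45 stays between 0.71 and 1.00 and hep, shown by its probe set with the higher mean, below 0, whereas puc, kay and Jra have points on both sides of 0.

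Genes that feed signals into the cascade did not pass the test either. Of 21 input and adaptor genes listed, 13 were measured and 11 tested; limma called 0, and 0 had an unadjusted p under 0.05. Over the 13 measured, 8 stood lower, 4 higher and 1, the receptor gene wgn, lay under the floor in all 4 samples; with each array centred on its median, and also without Gad1-negative b, 5 stood lower and 7 higher. Their median difference was -0.24, and it ran from -0.52 without Gad1-negative a to 0.10 without Gad1-negative b; with each array centred on its median it was 0.0035. syd, which encodes a scaffold that links JNK signalling to kinesin transport, read 140.5 and 94.4 in Cha-negative against 522.4 and 197.5 in Gad1-negative, a difference of 1.48 ± 0.79 (limma adjusted p = 0.925). Ask1, a MAP kinase kinase kinase of the stress pathways, read 884.6 and 526.4 against 400.2 and 351.1, a difference of -0.86 ± 0.56 (limma adjusted p = 0.925). In both genes the groups did not overlap, in opposite directions.

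Further target and feedback genes of JNK and AP-1 stood on both sides of 0. Of 19 listed, 14 were measured and 9 tested, with 0 called by limma and 1 at an unadjusted p under 0.05. That gene was Timp, an inhibitor of matrix metalloproteinases, which read 182.4 and 428.5 in Cha-negative and 742.3 and 772.3 in Gad1-negative. Its groups did not overlap, and its difference was 1.44 ± 0.62 (unadjusted p = 0.0491 and adjusted p = 0.925 by limma). Over the 14 measured 7 stood lower, 6 higher and upd2, a cytokine gene, lay under the floor throughout. With each array centred on its median 3 stood lower and 10 higher, with quantile normalization 4 and 9, and without Gad1-negative b 3 and 9. The median was -0.01 and ran from -0.02 to 0.12 with 1 sample left out, and it was 0.16 with each array centred on its median.

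The parallel MAP kinase cascades, the other bZIP factors and the wound genes gave no call by limma, and none of their tested genes had an unadjusted p under 0.05. Of 14 p38 and ERK pathway genes 9 were measured, 3 lower and 6 higher, with a median of 0.21 that became -0.07 without Cha-negative a. In that list lic, the MAP kinase kinase gene of the p38 branch, read 753 and 763.5 against 1718.2 and 1201.1, a difference of 0.92 ± 0.53, and its substrate's gene p38a differed by -0.49 ± 0.60. Of 12 genes for other bZIP factors, the protein class to which Jun and Fos belong, and their partners 10 were measured, 5 lower and 5 higher, with a median of -0.01 that ran from -0.06 to 0.04 with 1 sample left out. There maf-S, a small Maf protein gene, differed by 0.73 ± 0.68 and cnc, the fly counterpart of Nrf2, by 0.43 ± 0.62. Of 7 wound response genes 6 were measured, 2 lower and 4 higher, with a median of 0.15 that became -0.13 without Gad1-negative a. ple, the tyrosine hydroxylase gene, differed by 1.31 ± 0.76 and Fhos, a formin gene, by 0.43 ± 0.60. With each array centred on its median the medians were 0.46 for the p38 and ERK genes, 0.18 for the bZIP genes (3 lower and 7 higher) and 0.39 for the wound genes (1 lower and 5 higher). The limma adjusted p of lic, p38a, maf-S, cnc, ple and Fhos lay between 0.925 and 0.936.

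**Figure D5:**
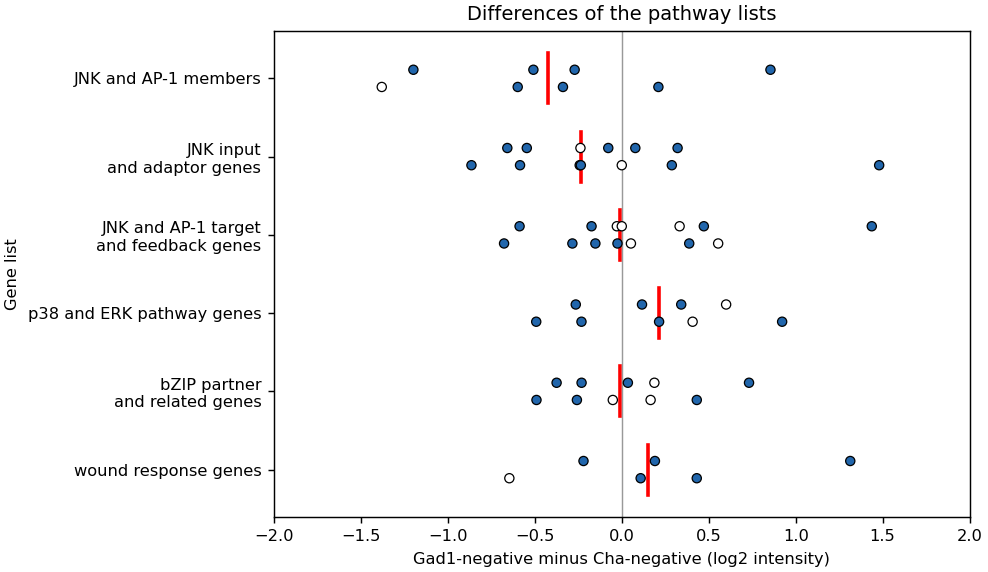
Log2 difference (Gad1-negative minus Cha-negative) of each measured gene of the members and of the other pathway lists, filled where tested and open where under the filter, with the list's median as a red bar. Each list has genes on both sides of 0; the medians lie between -0.42 for the members and 0.21 for the p38 and ERK genes.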

How the data were processed

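The authors deposited 1 intensity per probe set and sample, on a linear scale; the 2%-trimmed mean of each of the 4 columns is 500.1, so each array had been scaled alike. The software is not given in the sources used here. Of 14010 probe sets 44 were controls, 12444 named 1 gene, 327 several and 1195 none; 12394 were matched to current symbols by Entrez identifier. The floor was the 20th and the filter the 40th percentile. No genome build or probe sequence was used. The groups were fitted without a block in limma 3.58.1 (R 4.3.3; lmFit, eBayes with trend, two-sided, Benjamini-Hochberg over 6994 genes, 2 residual degrees of freedom). The code was tested on simulated data. Figures were drawn with matplotlib 3.10.9 in Python 3.11.15.

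The members and lists were chosen with earlier results of these data known. Named were the members; from each pathway list the tested genes with an unadjusted p under 0.05, or else the 2 with the smallest; and the 3 genes nearest to puc. wgn, upd2 and marker genes were singled out after their values were seen. Alternatives concerned normalization, floor, filter, probe sets, the fit, the replicate letter and single samples.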

Additional observations from a re-analysis of the deposited data

How the results depend on the processing

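Under 15 alternatives limma called 0 genes and 0 members; the lowest adjusted p of a member was 0.619. Of 105 recomputed differences of the 7 tested members, 101 kept their sign. Many of these were no check of the sign. Changing the filter, the floor percentile or the fit, or fitting every probe set on its own, left the differences exactly as reported. The 4 changes of sign, in puc, kay and Jra, all came with 1 sample left out. With 1 sample left out, the differences ran from -1.42 to 0.22 for puc, from -1.18 to 0.17 for kay and from -0.47 to 0.89 for Jra. Those of the second hep probe set ran from -2.46 to 1.35, and the median of the members from -0.75 to -0.23. The members without overlap then ran from 4 to 6 on the lower side and from 1 to 2 on the higher side. A group of 1 sample overlaps less readily, so these counts do not compare with those from all 4 samples. Centring each array on its median left 2 members without overlap on the lower side in place of 4, and 1 member in place of 3 more than 2-fold apart in Cha-negative; an offset of 50 in place of the floor also gave 1. The count of genes at an unadjusted limma p under 0.05 was 345 of 6994 as reported. It was 718 of 10845 with no filter and 213 with a filter at the 60th percentile, which leaves fewer genes to test. With the replicate letter as a block (replicate block) the count was 602 of 6994, and the limma adjusted p of puc was 0.719. The a minus b gaps of the fractions correlated at r = 0.25 across the tested genes, which are not independent replicates. With 2 pairs the letters are not shown to pair samples. The number of arrays limits the precision: the median 95% interval of a tested gene reached 1.51 to either side on the log2 scale.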
